A study of Rattus norvegicus with 16 samples.

Results

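Calpains, calpastatin, cathepsins and MuRF1 are proteins of muscle protein breakdown, and they were followed here as the 8 genes Capn1, Capn2, Capn3, Cast, Ctsb, Ctsd, Ctsl and Trim63. All probe sets named for 1 of these genes were taken, which gave 17 of the 8799 probe sets on the array, each kept on its own. Of the 17, 16 lay above a floor on at least 4 arrays and were tested; the calpastatin probe set Y13590_at lay under the floor on all 16 arrays, with intensities from -121 to 48.6. The arrays are single-colour short oligonucleotide arrays of rat skeletal muscle. They form 3 groups. EOM is extraocular muscle, which turns the eyeball, with 4 arrays (4 numbered samples) and no collection time. TA_6h is the muscle labelled TA, an abbreviation the labels do not spell out, collected at 6 hours, with 8 arrays (4 numbered samples). TA_1h is the same muscle collected at 1 hour, with 4 arrays (2 numbered samples). The labels give neither the event from which the hours count nor a strain, age, sex, genotype or treatment for any group. Whether each number stands for its own animal is not stated. The p-values therefore reflect only how these samples spread, and part of that spread may be technical.

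Calpains are cysteine proteases of the cytosol that calcium switches on. Capn1 and Capn2 are the catalytic subunits of the calpains found in nearly all cells, Capn3 is the muscle form that binds titin in the sarcomere and whose loss causes a limb-girdle muscular dystrophy in humans, and calpastatin (Cast) is the inhibitor of Capn1 and Capn2. Cathepsins work in the acid lysosome, Ctsb and Ctsl as cysteine proteases and Ctsd as an aspartic protease. Trim63 encodes MuRF1, the ubiquitin ligase that marks sarcomere proteins such as myosin heavy chain for the proteasome and is induced in wasting rodent muscle.

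The deposited intensities were used as deposited, with values under 56.5 raised to that floor before log2 was taken. In the EOM columns 24.3% of all intensities lie below 0, and in the TA columns 0 do, which points to another summary step for EOM. Differences of muscle cannot be told apart from differences of that step in any EOM comparison below. Among the TA arrays 5 stand apart, TA_6h 3a, 3b, 4a and 4b and TA_1h 2b. On them the middle probe set of the beta-actin control read 0.146 to 0.390 of its 3′ probe set. This ratio was 0.815 to 1.28 for the 7 remaining TA arrays, and EOM arrays had 0.891 to 0.978. They are called the low-ratio arrays, and values without them are given beside the results that they change most. Of 10 measured markers of skeletal muscle fibres (of 14 listed), 8 lay above the floor on all 16 arrays, while Ckm, muscle creatine kinase, did so on 4 of 4 EOM, 5 of 8 TA_6h and 3 of 4 TA_1h arrays and Acta1, skeletal actin, on 3 of 4 TA_1h arrays and all others. Against TA_6h, 4 of the 10 were lower in EOM, the myosin light chain Myl1 (log2 -1.04 ± 0.15), Des (-0.82 ± 0.21), Tnni2 (-0.79 ± 0.16) and the calcium store protein Casq1 (-0.65 ± 0.19), and 1 was higher, Ckm (4.39 ± 0.82). Their summed intensity was 121800 to 152400 on EOM arrays, 123700 to 326600 on TA_6h arrays and 129900 to 343900 on TA_1h arrays, and their part in the lower Trim63 and Capn3 values below was not tested. The marker genes were named after their values were seen.

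The main question was how the protease genes of extraocular muscle stand against those of TA. Against TA_6h, 5 member probe sets were higher in EOM and 5 lower of 16 tested, where 21.9% of all 7640 tested probe sets were called higher and 25.3% lower, 47.2% in all. The higher ones belonged to Capn2, Cast (2 of its 4 tested probe sets), Ctsb and Ctsl (1 of 2), and the lower ones to Capn3 (2 of 3), Ctsd (1 of 2) and Trim63 (both). Against TA_1h 5 were higher and 3 lower, where 17.7% and 19.5% of all probe sets were (37.2% in all). Against such a background the counts are not taken as a result about the members, and the members' own values follow. Both comparisons use the same 4 EOM arrays. All adjusted p-values are Benjamini-Hochberg values over 7640 probe sets from the limma fit, errors of log2 differences are its standard errors, and a call is an adjusted p under 0.05.

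**Figure D1:**
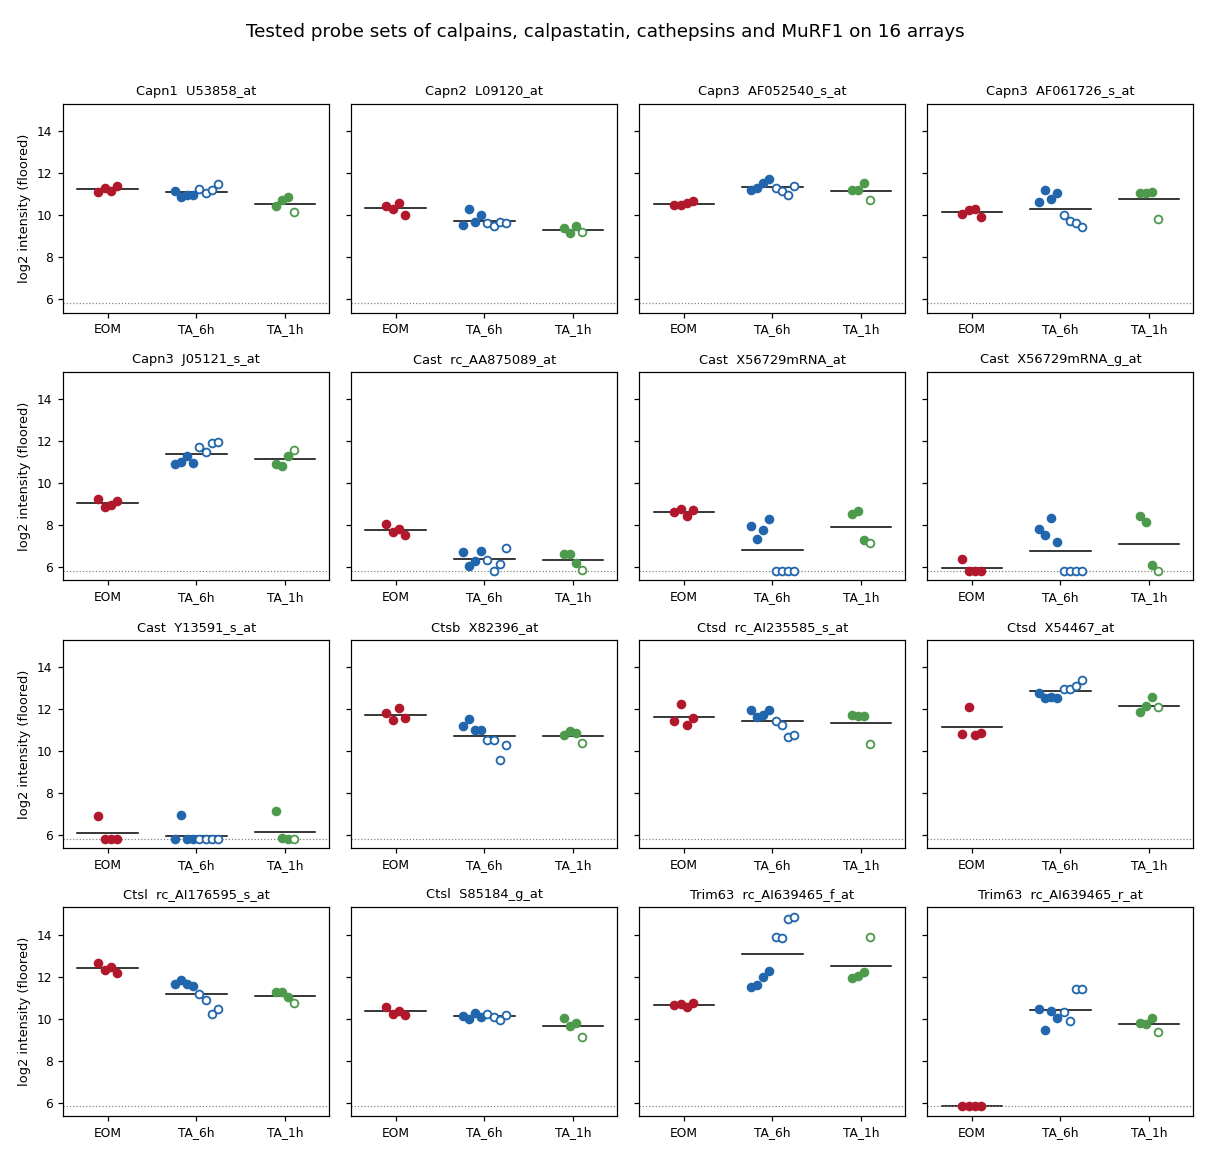
Log2 intensity, floored at 56.5 (dotted line), of each of the 16 tested probe sets (panels) on 4 EOM, 8 TA_6h and 4 TA_1h arrays; each point is an array, open points are the 5 low-ratio TA arrays, and bars are means over arrays. Both Trim63 panels and the J05121_s_at panel of Capn3 show all EOM arrays under all TA arrays, while Ctsl rc_AI176595_s_at shows them above all TA arrays.

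Trim63, the MuRF1 gene, was lower in EOM than in TA_6h through both of its probe sets, and rc_AI639465_r_at had the largest log2 difference of all member probe sets. Both are named for the same sequence record. The promoter of Trim63 is shown because of these differences, and that of Ctsd because it was the only lysosomal member with a probe set called lower. RefSeq promoter windows, from 250 bases before to 50 after the annotated start, matched 6 of the 8 genes (Capn2, Capn3, Cast, Ctsd, Ctsl and Trim63). The build is GRCr8, Trim63 lies at chr5:151816986-151817285 on the + strand and Ctsd at chr1:206968772-206969071 on the - strand, and both are written 5′ to 3′ along the gene. Capitals mark matches on either strand to TGTTTAC, a core of the sites that forkhead factors such as FoxO bind, and to CACGTG, the E-box core of the element that TFEB reads in lysosomal genes.
Trim63: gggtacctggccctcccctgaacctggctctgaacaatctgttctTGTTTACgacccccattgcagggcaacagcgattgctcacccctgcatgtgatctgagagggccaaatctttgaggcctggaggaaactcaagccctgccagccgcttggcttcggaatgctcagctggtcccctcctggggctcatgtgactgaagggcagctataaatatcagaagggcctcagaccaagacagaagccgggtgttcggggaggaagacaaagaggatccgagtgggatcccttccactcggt
Ctsd: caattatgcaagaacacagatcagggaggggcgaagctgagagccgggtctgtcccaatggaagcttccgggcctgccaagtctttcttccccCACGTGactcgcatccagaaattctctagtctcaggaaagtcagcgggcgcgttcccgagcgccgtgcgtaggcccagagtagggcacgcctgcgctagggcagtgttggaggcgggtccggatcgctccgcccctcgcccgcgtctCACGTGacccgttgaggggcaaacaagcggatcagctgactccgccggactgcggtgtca
The forkhead letters occur in Trim63 alone of the 6 windows, 205 bases before its start, and in 3.78% of all 33469 windows of the table. The E-box letters occur in Ctsd alone of the 6, 157 and 10 bases before its start, and in 6.42% of all windows. A match is a description of the letters and no evidence of binding.

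Through rc_AI639465_r_at, Trim63 had deposited intensities of -266, -79.5, -152 and -361 on the 4 EOM arrays. On the 8 TA_6h arrays the lowest was 700, the median 1291 and the highest 2698, and the TA_1h arrays gave 890, 851, 1057 and 663. No TA array came near the floor and no EOM array rose above it. With EOM at the floor only a bound can be given, and it bounds the floored reading of this probe set, not the gene. The reading was at least 24.1-fold lower in EOM than in TA_6h (log2 -4.59 ± 0.29, limma adjusted p = 1.89e-06). Against TA_1h it was at least 15.1-fold lower (-3.92 ± 0.35, limma adjusted p = 3.05e-05). The part of the EOM summary step in these values below 0 was not tested, and the second Trim63 probe set, below, gave a smaller difference. Equal floored EOM samples add no spread, so these p-values can be too small. Against TA_6h the call held in all 26 alternatives that could test this probe set.

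Through the second probe set, rc_AI639465_f_at, Trim63 was well above the floor in both muscles. EOM gave 1622, 1668, 1497 and 1711, which averages 1624 ± 92.6 (SD, n = 4). TA_6h averaged 12676 ± 11735 (SD, n = 4), with a lowest array of 2887, a median of 9864 and a highest of 29371, and TA_1h gave 3887, 4149, 4810 and 14956. The EOM arrays lay below all TA arrays, and the SD of TA_6h was nearly as large as its mean. The difference was -2.41 ± 0.63 against TA_6h (5.33-fold lower in EOM, adjusted p = 0.0105) and -1.85 ± 0.77 against TA_1h (adjusted p = 0.0866, 95% interval -3.56 to -0.13).

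The spread in TA followed the split between its arrays. The 5 low-ratio arrays had 14832 to 29371 through this probe set and the other 7 TA arrays 2887 to 4895, a log2 difference of 2.31 without overlap, the 159th in size among 7640 probe sets. Without the low-ratio arrays EOM was lower than TA_6h by a log2 difference of -1.16 (adjusted p = 0.00234) and lower than TA_1h by -1.44 (adjusted p = 0.000822). With only the low-ratio arrays as TA the difference from TA_6h was -3.66. The other Trim63 probe set moved less: low-ratio arrays had 663 to 2698 and the other TA arrays 700 to 1427, so these overlapped. The maker's suffix f marks probes that can match related sequences, and what part of the signal comes from such sequences was not tested.

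**Figure D2:**
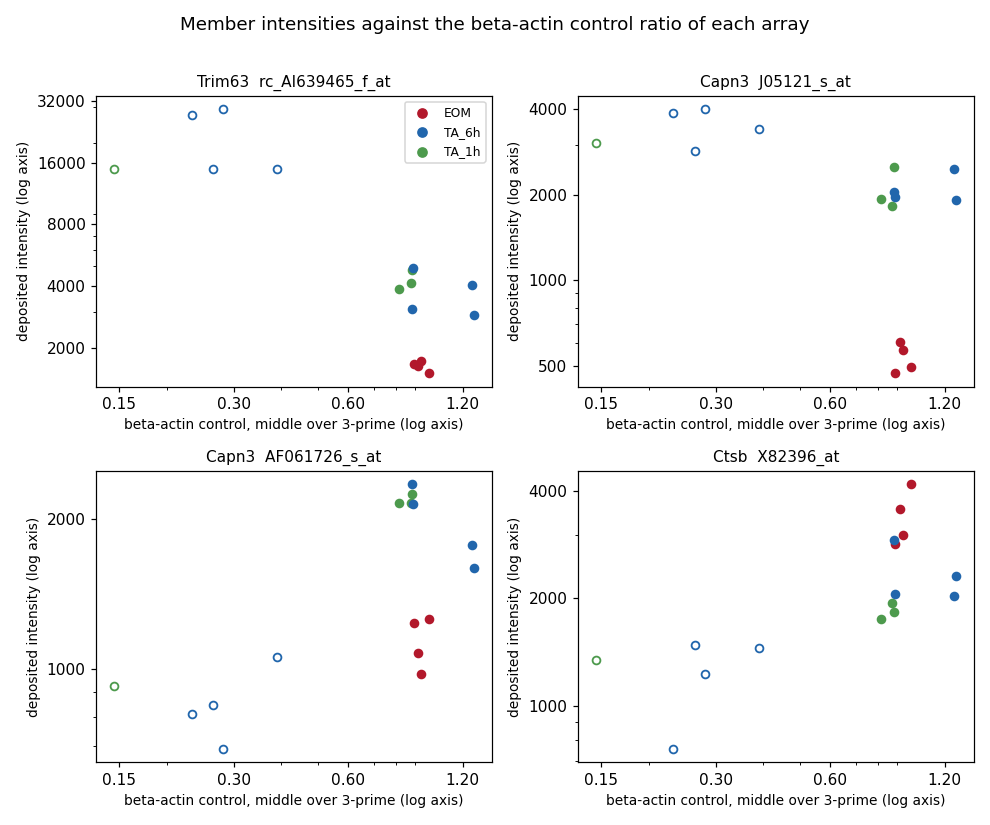
Deposited intensity of 4 member probe sets (log axis) against each array's beta-actin middle over 3′ control ratio (log axis), by group, with low-ratio TA arrays open. Trim63 rc_AI639465_f_at and Capn3 J05121_s_at are higher and Capn3 AF061726_s_at and Ctsb lower on the 5 low-ratio arrays than on the other 7 TA arrays, with no overlap.

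Of the 16 tested member probe sets, 7 separated the low-ratio arrays from the other TA arrays without overlap. Of these 2 were higher on the low-ratio arrays (Trim63 rc_AI639465_f_at and Capn3 J05121_s_at), where 4.52% of all probe sets were, and 5 were lower, where 8.74% were. The lower ones were Capn3 AF061726_s_at, Cast X56729mRNA_at and X56729mRNA_g_at, Ctsb and Ctsd rc_AI235585_s_at. The low-ratio arrays make up TA_6h replicates 3 and 4 whole, and 1 of the 4 TA_1h arrays.

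Among the calpains, the muscle form Capn3 was lower in EOM, by an amount that depended on the probe set. Through J05121_s_at it had 604, 470, 495 and 567 in EOM, while TA_6h ranged from 1908 to 4008 with a median of 2661 and TA_1h gave 1922, 1825, 2500 and 3042. All EOM arrays were below all TA arrays. Capn3 was 5.08-fold lower in EOM than in TA_6h (log2 -2.35 ± 0.25, adjusted p = 4.48e-05) and 4.28-fold lower than in TA_1h (-2.10 ± 0.30, adjusted p = 0.000484), and both calls held in all 27 alternatives.

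Through AF052540_s_at Capn3 had 1426, 1439, 1566 and 1652 in EOM. TA_6h ranged from 1992 to 3384 with a median of 2565, and TA_1h gave 2411, 2363, 3011 and 1687. The groups again did not overlap, but the lowest TA_1h array, which is the low-ratio one, came close to the highest EOM array. The difference was smaller, -0.77 ± 0.16 against TA_6h (1.70-fold lower in EOM, adjusted p = 0.00277) and -0.61 ± 0.19 against TA_1h (1.53-fold, adjusted p = 0.0292). The TA_1h call was lost in 8 of 27 alternatives, among them any fit without EOM replicate 1 (-0.58), 2 (-0.59) or 3 (-0.63) or without TA_1h replicate 1 (-0.57) or 2 (-0.65), and with only the low-ratio arrays as TA it was -0.15 (adjusted p = 0.437).

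The third Capn3 probe set, AF061726_s_at, showed no called difference with all arrays. It had 1079, 1239, 1258 and 979 in EOM, from 692 to 2348 in TA_6h with a median of 1323, and 2149, 2154, 2241 and 924 in TA_1h. EOM lay inside the range of TA_6h, above most low-ratio arrays and below all others. The difference from TA_6h was -0.17 ± 0.32 (adjusted p = 0.679) and that from TA_1h -0.64 ± 0.40 (adjusted p = 0.24). Without the low-ratio arrays it was called lower in EOM against both TA_6h (-0.78, adjusted p = 0.00424) and TA_1h (-0.96, adjusted p = 0.00157).

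Probe sets of Capn3 therefore moved against each other within TA. Low-ratio arrays had 692 to 1055 through AF061726_s_at and other TA arrays 1591 to 2348, while through J05121_s_at low-ratio arrays had 2853 to 4008 and the others 1825 to 2500. Across the 12 TA arrays, which share samples in pairs, Pearson's correlation of the log2 values of these probe sets was -0.885, given as a description. The maker's suffix s marks probes shared by several transcripts, and the files do not say which Capn3 transcripts each probe set reads.

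Capn2, the catalytic subunit of the widespread calpain that needs more calcium, was modestly higher in EOM. It had 1416, 1270, 1539 and 1039 in EOM, from 721 to 1258 in TA_6h with a median of 809, and 677, 567, 726 and 602 in TA_1h. EOM overlapped with TA_6h through TA_6h 1b and 2b and not with TA_1h. The difference was 0.59 ± 0.17 against TA_6h (1.51-fold, adjusted p = 0.0174) and 1.02 ± 0.21 against TA_1h (2.03-fold, adjusted p = 0.00384). The TA_6h call was lost after quantile normalization (0.36, adjusted p = 0.119), without the low-ratio arrays (0.45, adjusted p = 0.0814), without the TA_6h arrays that have no letter (0.45, adjusted p = 0.104) and without EOM replicate 3 (0.51, adjusted p = 0.0549), while the TA_1h call held in all 27 alternatives.

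Capn1, its counterpart that needs less calcium, did not pass the test against TA_6h and was higher than in TA_1h. EOM had 2212, 2516, 2305 and 2743, TA_6h ranged from 1882 to 2928 with a median of 2210, and TA_1h had 1382, 1695, 1907 and 1136. EOM lay within the TA_6h range and above all TA_1h arrays. The difference was 0.12 ± 0.15 against TA_6h (adjusted p = 0.548, 95% interval -0.23 to 0.46) and 0.70 ± 0.19 against TA_1h (1.62-fold, adjusted p = 0.016). The TA_1h call was lost after quantile normalization (0.48, adjusted p = 0.0933), with number as a replicate block (0.61, adjusted p = 0.0727), without TA_1h replicate 1 (0.73, adjusted p = 0.065) and without TA_1h replicate 2 (0.67, adjusted p = 0.0837).

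Calpastatin, the inhibitor, was read by 5 probe sets, of which the 4 tested did not all go one way between EOM and TA. Through rc_AA875089_at Cast was higher in EOM: 263, 206, 224 and 186 in EOM, from 28.3 to 119 in TA_6h with a median of 80.0, and 98.4, 97.8, 72.6 and 57.9 in TA_1h. All EOM arrays were above all TA arrays. The difference was 1.39 ± 0.20 against TA_6h (2.62-fold, adjusted p = 0.000316) and 1.45 ± 0.24 against TA_1h (2.73-fold, adjusted p = 0.00117). With the floor at the 40th percentile both were 0.70 and still called.

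Through X56729mRNA_at Cast had 393, 435, 349 and 418 in EOM, from 14.4 to 315 in TA_6h with a median of 106, and 370, 403, 155 and 143 in TA_1h. EOM lay above all TA_6h arrays and overlapped with TA_1h. The difference from TA_6h was 1.80 ± 0.53 (adjusted p = 0.0182), with the 4 low-ratio TA_6h arrays at the floor, and that from TA_1h was 0.73 ± 0.65 (adjusted p = 0.411). The TA_6h call was lost without the low-ratio arrays (0.79, adjusted p = 0.103), without TA_6h replicate 3 (1.47, adjusted p = 0.0516) and without replicate 4 (1.47, adjusted p = 0.0501), and the difference was 2.81 with only the low-ratio arrays as TA and 0.93 with the split as a batch term.

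The neighbouring probe set X56729mRNA_g_at, named for the same record, ran with it across the TA arrays (Pearson's correlation of log2 values 0.857 over 12 arrays, a description) but not in EOM. It was above the floor on 1 of 4 EOM arrays (83.8, against -331, -70.1 and -92.0 on the others), on the 4 TA_6h arrays that are not low-ratio (149 to 321) and on 3 of 4 TA_1h arrays. Its difference from TA_6h was -0.81 ± 0.59 (adjusted p = 0.281), and it was called lower in EOM without the low-ratio arrays (-1.77, adjusted p = 0.0341). Y13591_s_at lay above the floor on 1 EOM, 1 TA_6h and 2 TA_1h arrays, and its difference from TA_6h was 0.13 ± 0.29 (adjusted p = 0.734). The 4 tested calpastatin probe sets thus gave 2 called higher, 2 not called and no common direction.

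Among the cathepsins, Ctsl was higher in EOM. Through rc_AI176595_s_at it had 6382, 5081, 5571 and 4608 in EOM, from 1181 to 3698 in TA_6h with a median of 2621, and 2442, 2427, 2096 and 1698 in TA_1h. All EOM arrays were above all TA arrays. The difference was 1.22 ± 0.30 against TA_6h (2.32-fold, adjusted p = 0.00763) and 1.33 ± 0.36 against TA_1h (2.51-fold, adjusted p = 0.017). Without the low-ratio arrays the TA_6h difference was 0.72 (adjusted p = 0.0114), and the TA_1h call was lost without TA_1h replicate 1 (1.51, adjusted p = 0.054) or 2 (1.14, adjusted p = 0.125).

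The other Ctsl probe set, S85184_g_at, had 1519, 1195, 1332 and 1158 in EOM, from 974 to 1248 in TA_6h with a median of 1086, and 1035, 801, 891 and 556 in TA_1h. EOM overlapped with TA_6h and lay above TA_1h. The difference was 0.23 ± 0.16 against TA_6h (adjusted p = 0.25, 95% interval -0.12 to 0.58) and 0.69 ± 0.19 against TA_1h (1.62-fold, adjusted p = 0.0179). The TA_1h call was lost after quantile normalization (0.44, adjusted p = 0.105), with number as a replicate block (0.72, adjusted p = 0.0516) and without TA_1h replicate 2 (0.51, adjusted p = 0.151).

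Ctsb, measured by a single probe set, was higher in EOM than in TA_6h. EOM had 3570, 2839, 4179 and 3010, TA_6h ranged from 757 to 2913 with a median of 1752, and TA_1h had 1745, 1944, 1828 and 1342. A single TA_6h array, 1b, reached into the EOM range. The difference was 1.02 ± 0.29 against TA_6h (2.03-fold, adjusted p = 0.0161) and 0.98 ± 0.36 against TA_1h (1.98-fold, adjusted p = 0.0541). Low-ratio arrays had 757 to 1479 and the other TA arrays 1745 to 2913. Without the low-ratio arrays the TA_6h difference was 0.55 (adjusted p = 0.0551) and no longer called, while the TA_1h difference was 0.87 (adjusted p = 0.00923); in all, 14 of 27 alternatives called the TA_1h difference.

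Ctsd, the aspartic protease, was lower in EOM through X54467_at. This probe set had 1774, 4430, 1705 and 1830 in EOM, from 5914 to 10549 in TA_6h with a median of 7378, and 3635, 4499, 6054 and 4322 in TA_1h. EOM was below all TA_6h arrays, and EOM replicate 2 alone reached into the TA_1h range. Ctsd was 3.30-fold lower in EOM than in TA_6h (log2 -1.72 ± 0.32, adjusted p = 0.00152), a call that held in all 27 alternatives. Against TA_1h the difference was -1.03 ± 0.39 (adjusted p = 0.061), and -1.36 (adjusted p = 0.00296) without EOM replicate 2; 6 of 27 alternatives called it.

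The second Ctsd probe set, rc_AI235585_s_at, did not pass the test. It had 2755, 4876, 2436 and 3016 in EOM, from 1609 to 3946 in TA_6h with a median of 2924, and 3372, 3289, 3192 and 1304 in TA_1h. All 3 groups overlapped, and EOM replicate 2 was the highest array, as it was within EOM for X54467_at. The difference was 0.22 ± 0.32 against TA_6h (adjusted p = 0.59, 95% interval -0.49 to 0.92) and 0.27 ± 0.39 against TA_1h (adjusted p = 0.617). Without the low-ratio arrays these values were -0.18 (adjusted p = 0.626) and -0.05 (adjusted p = 0.906). Low-ratio arrays had 1304 to 2748 and the other TA arrays 3099 to 3946.

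**Figure D3:**
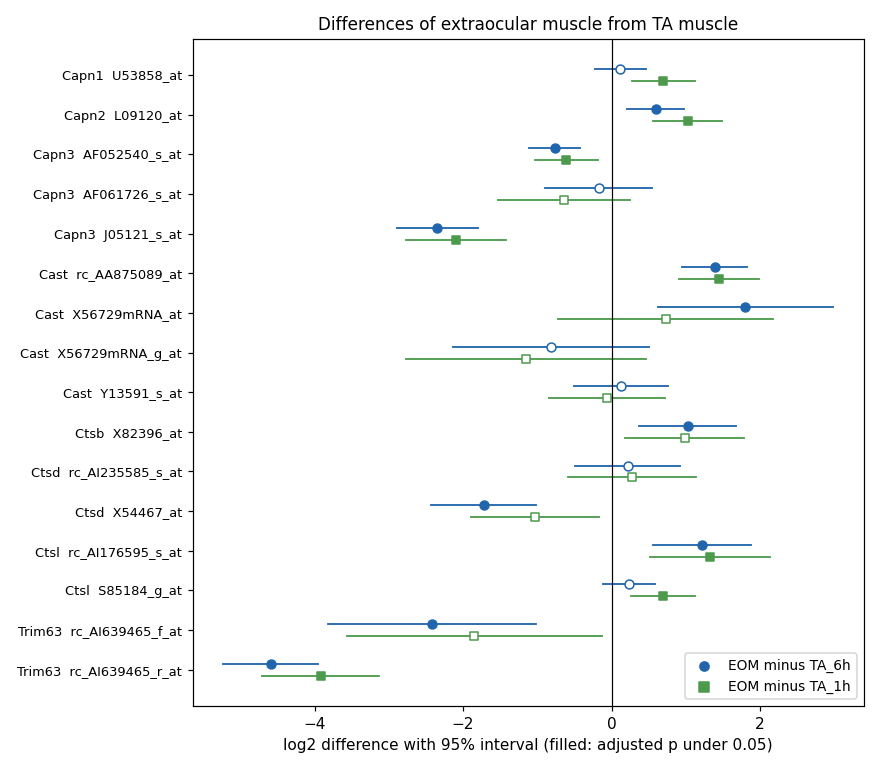
Log2 difference of EOM from TA_6h (circles) and from TA_1h (squares) for each tested probe set, with 95% intervals; filled symbols have an adjusted p under 0.05. Probe sets of Capn3, Cast, Ctsd, Ctsl and Trim63 differ in size or in call from others of the same gene, and both Trim63 probe sets lie left of 0.

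Cathepsins are also made by cells other than fibres, and markers of several such cells were higher in EOM beside Ctsb and Ctsl. Of 13 measured markers of macrophages and other leukocytes (of 23 listed) 10 were higher and 1 lower in EOM than in TA_6h, and their summed intensity was 18950 to 25940 on EOM arrays, 6930 to 10980 on TA_6h arrays and 5757 to 7330 on TA_1h arrays. Cd53 (log2 2.84 ± 0.18), Aif1 (2.58 ± 0.18) and Lyz2 (2.55 ± 0.21) were higher and C1qc (-1.74 ± 0.35) lower, and Csf1r, the receptor that defines macrophages, lay above the floor on 1 of 4 EOM, 3 of 8 TA_6h and 2 of 4 TA_1h arrays. Within TA the sum was 5757 to 10980 on low-ratio arrays and 6298 to 8865 on the others. Of 7 Schwann cell and nerve markers 6 were higher and 0 lower, with a summed intensity of 11150 to 15160 on EOM, 2453 to 3339 on TA_6h and 2768 to 3425 on TA_1h arrays. Adipocyte markers were 4 higher and 2 lower of 8, and fibroblast and matrix markers 7 higher and 1 lower of 13. The largest adipocyte difference was that of Lipe, which was lower (-4.83 ± 0.26), with all EOM arrays at the floor. Markers of endothelium and smooth muscle did not share the rise, with 1 higher and 2 lower of 7 and a median of -0.31. The part of these cells in the cathepsin values was not tested. In whole muscle, more or fewer cells of a type cannot be told apart from more or less RNA per cell.

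Other calpains and cathepsins were taken from lists, with 1 probe set a gene; over all 4317 genes so represented 22.1% were higher and 26.1% lower in EOM than in TA_6h, with a median of -0.10. Of 4 measured other calpains 2 were higher, Capn8 (2.16 ± 0.17), the calpain known from stomach, and Capn6 (1.05 ± 0.14). Capns1, the small subunit shared by Capn1 and Capn2, was lower (-0.83 ± 0.27, adjusted p = 0.0305); this call was lost in 9 of 27 alternatives, among them those without the low-ratio arrays (-0.32, adjusted p = 0.0891), without any single EOM replicate and without TA_6h replicate 3 or 4. Of 6 other cathepsins 3 were higher, Ctss (2.03 ± 0.19, adjusted p = 2.58e-05), which is also on the leukocyte list, Ctsk (1.62 ± 0.21), the collagen-degrading cathepsin of osteoclasts, and Ctsh (1.09 ± 0.19). Ctsj, a rodent cathepsin known from placenta, was lower (-0.83 ± 0.25), a call lost in 8 of 27 alternatives, among them those without the low-ratio arrays (-0.55, adjusted p = 0.133), without EOM replicate 1 or 3 and without TA_6h replicate 3 or 4. The list medians were 0.96 for the calpains and 1.36 for the cathepsins. Of 4 cathepsin inhibitors 1 was higher, Cstb (cystatin B, 1.17 ± 0.15), with a list median of -0.14.

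The lists around Trim63 were those of ubiquitin and of the proteasome. Of 10 other muscle ubiquitin ligases and regulators 0 were higher and 2 lower in EOM than in TA_6h, Trim54 (-1.48 ± 0.16, adjusted p = 5.79e-05), the MuRF3 ligase that sits at microtubules and the sarcomere, and Nr3c1 (-1.49 ± 0.55, adjusted p = 0.0469), the glucocorticoid receptor, with 3 of 4 EOM arrays above the floor. The Trim54 call held in all 27 alternatives and that of Nr3c1 was lost in 17 of 26, among them the fits without any single TA replicate or without EOM replicate 2 or 3. With only the low-ratio arrays as TA this list had 5 higher and 1 lower, with a median of 0.30 in place of -0.10. Of 7 ubiquitin and conjugating enzyme genes 1 was higher, Ube2d2 (1.75 ± 0.49), and 2 were lower, Ube2g2 and the deubiquitinase Usp19 (-0.70 ± 0.24). The Ube2g2 probe set read at least 32.8-fold lower, a bound on its floored reading, with all EOM arrays at the floor. The Usp19 call was lost in 14 of 27 alternatives, including those without EOM replicate 1, 3 or 4 and without any single TA replicate. Ube2d2 was higher by 0.79 without the low-ratio arrays.

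The 19S regulatory particle of the proteasome recognises ubiquitin chains and unfolds substrates. Of 11 measured genes listed under it 8 were lower and 1 higher in EOM than in TA_6h, with a median of -0.52. The leading ones were Psmd4 (-1.23 ± 0.19, adjusted p = 0.000588), a ubiquitin receptor, Psmd2 (-1.04 ± 0.29), Psmd1 (-1.04 ± 0.24) and Psmd13 (-0.81 ± 0.15), while the single higher one, named after its value was seen, was Psmd10 (0.76 ± 0.22). Their summed intensity was 16590 to 18550 on EOM arrays and 22270 to 34850 on TA_6h arrays. Scaling every array to a common median left 5 lower, and leaving out the low-ratio arrays left 5 lower and 0 higher, where Psmd2 (-0.53, adjusted p = 0.111) was not called and Psmd1 was lower by -0.62. Without EOM replicate 1, EOM replicate 2 or TA_6h replicate 3 there were 5 lower.

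Of 11 genes of the 20S catalytic core 4 were higher and 1 lower, with a median of -0.02, which quantile normalization turned to -0.22 and scaling to a common median to 0.09. Psmb3 (1.08 ± 0.19), Psma1 (0.88 ± 0.30) and Psma2 (0.81 ± 0.21) were higher and Psma7 (-1.16 ± 0.33) lower. The Psma1 call was lost in 9 of 27 alternatives, including those without the low-ratio arrays (0.32), without EOM replicate 1, 2 or 3 and without TA_6h replicate 3 or 4, and Psma7 was lower by -0.57 without the low-ratio arrays. With only the low-ratio arrays as TA 4 were higher and 4 lower, and the summed 20S intensity was 63630 to 98690 on low-ratio arrays and 38330 to 48400 on the other TA arrays; their part in the result was not tested. Of 4 immunoproteasome genes, which serve antigen processing, 2 were higher, Psmb9 (1.73 ± 0.22) and the activator Psme2 (1.04 ± 0.23), beside the leukocyte marker sums above.

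**Figure D4:**
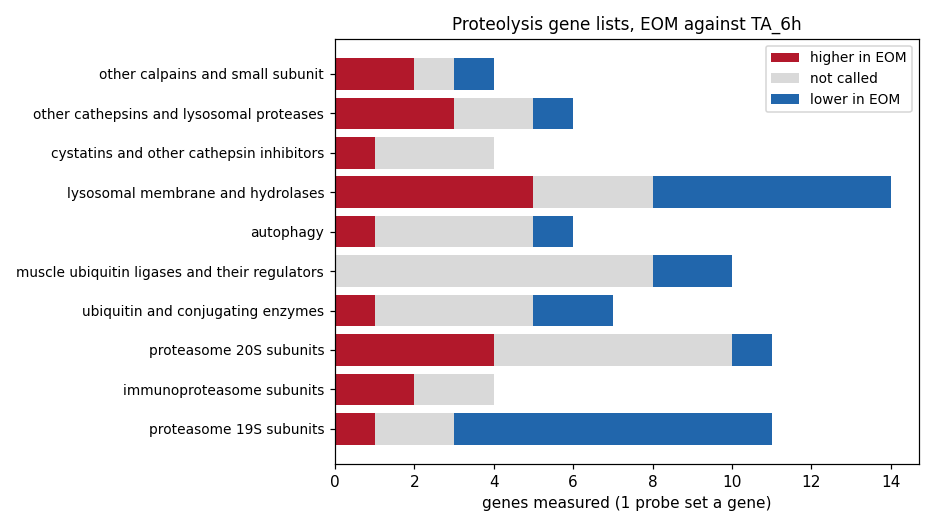
Number of measured genes (1 probe set a gene) in each list of proteolysis genes that were called higher in EOM, not called, or called lower in EOM against TA_6h. The 19S list has 8 lower of 11 and the 20S list 4 higher and 1 lower of 11.

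The last comparison asked whether the collection times of TA differ. Between TA_6h and TA_1h, 0 of 16 member probe sets and 0 of 7640 probe sets were called by limma (0% background), and 424 of all probe sets had an unadjusted p under 0.05. The 95% interval excluded 0 for Capn1 (0.58 ± 0.19, 0.16 to 1.00) and for Ctsl S85184_g_at (0.46 ± 0.19, 0.03 to 0.89). For Trim63 the intervals reached from -1.15 to 2.28 through rc_AI639465_f_at and from -0.11 to 1.46 through rc_AI639465_r_at, so that a difference of several fold lies inside the first interval, with 2 TA_1h samples. Using only the low-ratio arrays as TA leaves a lone TA_1h sample, so no call between TA_6h and TA_1h in that fit is taken as a result. That fit gave differences of 1.12 for Capn1, 0.99 for Ctsl S85184_g_at and -1.34 for Cast X56729mRNA_at. These probe sets were named after their values in it were seen, and they do not stand for all 16.

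The genes whose log2 values ran most like the brightest probe set of each member were ranked by Pearson's correlation over the 10 numbered samples, which share 3 groups and the low-ratio split. For Trim63 these were Cdc37 (0.99), the glucose transporter Slc2a4 (0.99) and RT1-DMa (0.99), and for Capn3 Cyp27a1 (0.97), Arhgap1 (0.97) and Synj1 (0.96). For Ctsb they were Ptgfrn (0.98), Nap1l1 (0.98) and another member, Ctsl (0.98), and for Ctsl they were Mal (0.98), Sdc2 (0.98) and Efemp1 (0.98). For Ctsd they were Add1 (0.96), Prpsap1 (0.96) and Fgf16 (0.96), for Capn2 Gadd45a (0.97), Sult1a1 (0.95) and Gnb2 (0.95), for Capn1 Fgg (0.92), Bak1 (0.91) and Cpt1a (0.89), and for Cast Ireb2 (0.98), Actg1 (0.97) and Slc25a11 (0.97).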

How the data were processed

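Gene expression was measured in 16 rat muscle arrays. Each array gives a linear intensity per probe set, as deposited; the sources used here do not say how the authors combined probes. Without the highest and lowest 2% of values, the mean of each array lay between 801.1 and 801.8, which shows scaling to a shared mean before deposit. Values under the 25th percentile of all intensities (56.5) were raised to it, log2 was taken, and the 7640 probe sets above it on at least 4 arrays, without 59 controls, were tested. Arrays that share group and number were averaged; the TA_6h arrays 1 and 2, which carry no letter, were joined with 1b and 2b, which is an inference. All 3 groups entered 1 fit in limma 3.58.1 (R 4.3.3, lmFit and eBayes; 7 residual and 2.83 prior degrees of freedom), with Benjamini-Hochberg adjustment over all probe sets. Python 3.11.15 with matplotlib 3.10.9 drew the figures.

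GEO's platform annotation supplied gene names, giving 1 symbol for 7018 probe sets, several for 308, which were left unnamed, and not listing 1473. In gene lists each gene is represented by its probe set with the highest mean. All member probe sets are named, and from each proteolysis list up to 4 called genes with the largest difference between EOM and TA_6h; others are said to be named after their values were seen, as are all genes of cell marker lists. The members and lists were chosen with earlier results of these data known. Low-ratio arrays are those with a beta-actin middle over 3′ ratio under 0.6. The 27 alternatives changed the floor, the filter, the normalization, the use of arrays and numbers, the fit and the samples. The number of arrays limits the precision.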

Additional observations from a re-analysis of the deposited data

Results flagged for a closer look

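Groups of 4 numbered samples were looked at, 32 in all. A sample was singled out when its gap to its nearest neighbour took more than 0.829 of the whole range of log2 values. Among samples above the floor, chance alone singles out about 1 in 20. That rate does not hold for groups with samples at the floor. There 3 equal values fix the share at 1.0, and 4 equal values can single out none. For Ctsd X54467_at EOM replicate 2 was high (share of the range 0.926), with 4430 against 1705 to 1830 in the other 3 EOM samples. For Capn3 AF052540_s_at TA_6h replicate 2 was high (0.848), and for Trim63 rc_AI639465_r_at TA_6h replicate 4, both arrays of which are low-ratio, was high (0.849). For Cast X56729mRNA_g_at EOM replicate 1 was high (1.0). For Cast Y13591_s_at EOM replicate 1 (1.0) and TA_6h replicate 1 (1.0) were high; in all 3 calpastatin cases every other sample of the group lay at the floor.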

How the results depend on the processing

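Over 27 alternatives, 1269 alternative differences of member probe sets were computed (a filter or floor that removes a probe set gives none), of which 1144 kept their direction and their side of the threshold. Another 25 lost a call and 41 gained it; 0 of the called differences changed direction, and 59 that were called under neither setting changed sign, with values from -0.30 to 0.82 and a median size of 0.06. The 10 member calls between EOM and TA_6h were 7 to 12. The 7 came with the filter of at least 16 arrays above the floor, which tested 11 member probe sets. Of all 4041 probe sets tested there 1136 were higher and 791 lower. The 12 came with the low-ratio arrays as a batch term and each array as its own sample. There 1712 of all 7640 probe sets were higher and 2073 lower. The 8 calls between EOM and TA_1h were 13 with the low-ratio arrays as a batch term and each array as its own sample. In that fit 1684 of all 7640 probe sets were higher and 1904 lower, beside 1354 and 1489 in the main fit. Leaving out 1 EOM or TA_6h sample at a time gave 7 to 10, where 1229 to 1453 of all probe sets were higher and 1269 to 1592 lower. Fits without TA_1h replicate 1 or 2 keep a single TA_1h sample, assumed to vary like the others, so their counts are not given. The cause of these shifts was not tested. The 0 calls between TA_6h and TA_1h were 3 with only the low-ratio arrays as TA. That fit keeps a lone TA_1h sample, and its calls over all 7640 probe sets also rose from 0. Its member count is therefore not taken as a result about the members. Without the low-ratio arrays the EOM and TA_6h split of 5 higher and 5 lower was 2 and 7, and with the batch term 5 and 7. Over all 7640 probe sets the fit without the low-ratio arrays had 1585 higher and 1919 lower, beside 1671 and 1935 in the main fit. Of the proteolysis lists' counts against TA_6h, 21 of 270 totals (higher and lower added) moved by more than 1.5 times, and by direction 10 of the higher and 56 of the lower counts did, out of 540. With number as a replicate block there were 10, 7 and 0 member calls. Of all 7640 probe sets 1642 were then higher and 1865 lower against TA_6h, and 1244 and 1296 against TA_1h. Whether the numbers pair samples is not known. Correlations of same-numbered deviations ran from -0.418 to 0.389 over 8 pairs, 2 above 0.1. Both ends are TA_1h with TA_6h, where the 2 TA_1h samples deviate as mirror images, so these values cannot decide on pairing. EOM with TA_6h gave 0.105, 0.021, 0.032 and 0.071, and 4 of 4 EOM samples correlated best with the TA_6h sample of their own number. Signal under the floor limits what can be said of calpastatin and of Trim63 rc_AI639465_r_at in EOM.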

Other observations

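Genes of the lysosome other than its proteases differed between EOM and TA_6h in both directions. Of 14 measured genes of the lysosomal membrane and of hydrolases (of 25 listed) 5 were higher and 6 lower in EOM, with a median of 0.04 that was -0.20 after quantile normalization and -0.38 without the low-ratio arrays, where 5 were higher and 3 lower. Asah1, acid ceramidase, was higher (log2 2.86 ± 0.15, limma adjusted p = 6.62e-07). Igf2r, the receptor that carries hydrolases to the lysosome, was lower (-2.33 ± 0.66, limma adjusted p = 0.0161). Gaa, acid alpha-glucosidase (-2.15 ± 0.27), and Acp2, lysosomal acid phosphatase (-2.09 ± 0.55), were lower too. The Igf2r and Acp2 probe sets each lay above the floor on 3 of 4 EOM arrays. The calls of Igf2r and Acp2 were lost without the low-ratio arrays (-2.57, limma adjusted p = 0.0601, and -2.00, limma adjusted p = 0.0769) and with only these as TA. Of 6 autophagy genes 1 was higher, the mitophagy receptor Bnip3l (0.66 ± 0.16, limma adjusted p = 0.00853), and 1 lower, Becn1 (-0.55 ± 0.16, limma adjusted p = 0.0179), a call lost after scaling to a common median.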
